A study of Mus musculus with 10 samples.

Results

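Fat cell genes were followed in RNA of spinal cord from C57BL/6 mice, a common inbred strain, in both sexes and at 2 ages. The 7 genes were chosen by symbol, through their Entrez Gene identifiers, from the 26301 identifiers of the deposited count files. They are Ucp1 (Entrez Gene 22227), Cidea (12683), Fabp4 (11770), Adipoq (11450), Cfd (11537), Plin1 (103968) and Plin4 (57435). Libraries came from 8-week males (n = 3), 4-week males (n = 2), 8-week females (n = 3) and 4-week females (n = 2), 10 in all. All were untreated as far as the labels say, but no label states whether replicates were different mice. The p-values below therefore speak of the spread among these libraries, which may be technical. A library held between 8453559 and 11594610 counts, and levels are given in CPM, which scales a gene's counts to its library's total.

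Adipocytes store triglyceride in lipid droplets and are not a cell type of the spinal cord itself, but fat lies in the epidural space and beside the vertebrae and can stay on a dissected cord. White fat cells hold a single large droplet and release hormones such as leptin, resistin and adiponectin. Brown fat cells hold many small droplets and mitochondria that make heat through the uncoupling protein Ucp1. Adipoq, Cfd, Fabp4 and Plin1 are made by both kinds of fat cell.

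The study's tissue label was met in all libraries by cord genes: Mbp, the basic protein of myelin, lay between 21739 and 24466 CPM at 8 weeks and between 30710 and 34186 CPM at 4 weeks. Some libraries also held transcripts of other organs. Both male 4-week libraries held Hsd3b1, a steroid hormone enzyme of the adrenal, at 33.2 and 22.9 CPM, while the other 8 libraries held at most 1 count. Sftpc, a surfactant protein of lung, reached 385 CPM in the second male 8-week library and 43.0 CPM in the third. Male 4-week library 1 held 46 counts of it (5.39 CPM), and the remaining libraries held at most 5 counts. Age results over both sexes are given with and without these 4 libraries for the 7 genes and for the counts of the fat gene lists; single genes of those lists were not refitted without them. With both male 4-week libraries left out, the age change rests on females alone.

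Promoter sequences were at hand for 5 of the 7 genes, from RefSeq on build GRCm38.p6, whereas the counts were made on mm9. The 4 shown here belong to Ucp1 and Adipoq, whose ratio set male 4-week library 2 apart at 4 weeks, and to Plin1 and Plin4. These perilipins are related droplet coat proteins, of which Plin1 passed the test for age and Plin4 did not. Each run is the 250 bases before the gene's start, read 5′ to 3′ on the gene's strand. Ucp1 lies at chr8:83290098-83290347 (plus strand), Adipoq at chr16:23146286-23146535 (plus strand), Plin1 at chr7:79732777-79733026 (minus strand) and Plin4 at chr17:56109783-56110032 (minus strand).
Ucp1: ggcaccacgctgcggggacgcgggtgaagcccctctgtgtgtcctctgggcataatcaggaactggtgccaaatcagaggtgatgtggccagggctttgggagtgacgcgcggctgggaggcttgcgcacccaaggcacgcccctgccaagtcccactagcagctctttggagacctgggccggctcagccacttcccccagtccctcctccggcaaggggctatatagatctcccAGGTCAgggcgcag
Adipoq: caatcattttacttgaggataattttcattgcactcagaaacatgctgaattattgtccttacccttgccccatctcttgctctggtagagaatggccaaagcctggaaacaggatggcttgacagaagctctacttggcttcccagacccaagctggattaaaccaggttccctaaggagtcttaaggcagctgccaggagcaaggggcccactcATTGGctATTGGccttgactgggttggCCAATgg
Plin1: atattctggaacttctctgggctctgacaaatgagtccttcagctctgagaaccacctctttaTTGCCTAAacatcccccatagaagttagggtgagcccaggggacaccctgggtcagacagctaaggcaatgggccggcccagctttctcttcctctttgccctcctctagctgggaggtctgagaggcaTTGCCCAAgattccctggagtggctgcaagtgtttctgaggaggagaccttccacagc
Plin4: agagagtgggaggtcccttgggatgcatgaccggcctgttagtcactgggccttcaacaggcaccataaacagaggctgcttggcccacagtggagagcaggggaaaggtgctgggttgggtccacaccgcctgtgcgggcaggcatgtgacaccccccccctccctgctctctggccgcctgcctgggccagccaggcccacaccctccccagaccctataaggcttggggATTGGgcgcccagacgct
Capitals mark matches, on either strand, to the CCAAT box, to the TATA box searched as TATAAA, to the nuclear receptor half-site AGGTCA or to a form of the C/EBP site written TTGCNNAA. A match of TTGCNNAA may share letters with one of CCAAT. The CCAAT box was matched 3 times before Adipoq and 1 time before Plin4, and 33.8% of 32851 promoter windows of that length hold it. AGGTCA was matched 1 time before Ucp1 (14.0% of windows), and TTGCNNAA 2 times before Plin1 (9.56% of windows). TATAAA (12.4% of windows) was matched in none of the 5 members' windows, and Cfd had no match to any of the 4 motifs. These matches describe letters in the window and do not show binding.

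Of the 7 genes, 6 were lower at 8 weeks than at 4 weeks over both sexes: Ucp1, Cidea, Fabp4, Adipoq, Cfd and Plin1. Plin4 did not pass the test. Across all 15540 genes tested, 5.01% were called lower and 1.61% higher at 8 weeks. The 7 genes had a median log2 fold change of −3.40, against 0.01 over all genes tested. All 7 passed the filter on low counts, which a gene can pass through the 4-week libraries alone. In bulk RNA fewer fat cells on a cord and less of these transcripts per fat cell cannot be told apart.

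**Figure D1:**
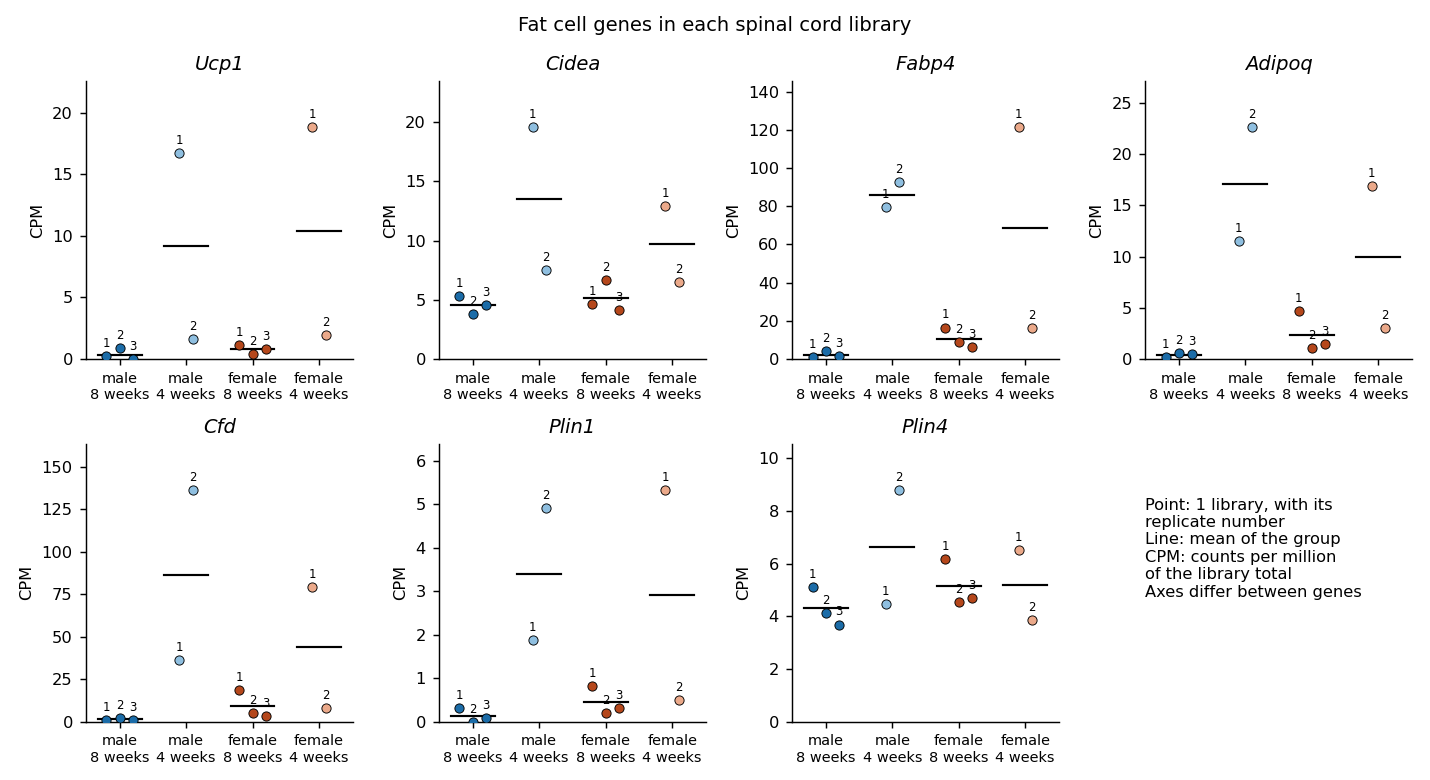
Level of each of the 7 genes in CPM (vertical axis, from 0, a different scale for each gene) in the 10 libraries, by sex and age; a point is a library with its replicate number and a line is the group mean. At 4 weeks Ucp1 is high in male library 1 (16.8 CPM) and female library 1 (18.8 CPM), while Adipoq is highest in male library 2 (22.6 CPM), and the ages overlap for Plin4.

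Ucp1, the proton channel that lets brown fat mitochondria make heat, lay at 0.209, 0.891 and 0 CPM in the 8-week males, against 16.8 and 1.64 CPM in the 4-week males. In females it lay at 1.13, 0.412 and 0.835 CPM at 8 weeks and at 18.8 and 1.97 CPM at 4 weeks. The 0 in male 8-week library 3 allows a level of up to 0.284 CPM (3 counts). Every 8-week library thus lay below every 4-week library, although 1 library of each sex at 4 weeks was close to the 8-week range. Ucp1 averaged 0.580 ± 0.441 CPM at 8 weeks (SD, n = 6) and 9.79 ± 9.26 CPM at 4 weeks (SD, n = 4). Its log2 fold change was −4.06 (SE 0.76; edgeR quasi-likelihood test, Benjamini-Hochberg adjusted p = 0.00479). The change was −3.31 without male 4-week library 1 and −3.26 without female 4-week library 1, both still called. It was −3.68 without both male 4-week libraries (edgeR adjusted p = 0.0297) and −3.94 without male 8-week libraries 2 and 3 (0.0407), and limma-voom did not call it (adjusted p = 0.111).

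Cidea, a droplet protein abundant in brown fat, did not fall to near 0 as Ucp1 did. It lay at 5.34, 3.79 and 4.54 CPM in 8-week males, against 19.6 and 7.50 CPM in 4-week males. In females it lay at 4.64, 6.69 and 4.17 CPM at 8 weeks and at 12.9 and 6.51 CPM at 4 weeks. Female 8-week library 2 lay above female 4-week library 2, and no other 8-week library reached the lowest 4-week level. Cidea averaged 4.86 ± 1.04 CPM at 8 weeks (SD, n = 6) and 11.6 ± 6.00 CPM at 4 weeks (SD, n = 4). The log2 fold change was −1.23 (SE 0.27; edgeR adjusted p = 0.0135), and the call ended without female 4-week library 1 (−1.11; edgeR adjusted p = 0.0559). It also ended without both male 4-week libraries (−0.90; 0.142) and without male 8-week libraries 2 and 3 (−1.04; 0.123).

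For both of these genes the 2 highest 4-week libraries were library 1 of each sex and the 2 lowest were library 2 of each sex. In the 8-week males, where Ucp1 summed to 10 counts and Adipoq to 12 over 3 libraries, Cidea still had 133 counts. Cidea counts per Adipoq count lay between 1.00 and 25.5 at 8 weeks and between 0.332 and 2.13 at 4 weeks. Cidea and Adipoq thus did not keep one proportion across the libraries, and Cidea kept a level at 8 weeks in libraries with almost no Adipoq.

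Adipoq encodes adiponectin, a hormone made by fat cells of both kinds. It lay at 0.209, 0.557 and 0.473 CPM in 8-week males, against 11.5 and 22.6 CPM in 4-week males. In females it lay at 4.64, 1.03 and 1.46 CPM at 8 weeks and at 16.9 and 3.06 CPM at 4 weeks. The male ages did not overlap, while female 8-week library 1 lay above female 4-week library 2. Adipoq averaged 1.39 ± 1.65 CPM at 8 weeks (SD, n = 6) and 13.5 ± 8.32 CPM at 4 weeks (SD, n = 4). Over both sexes the log2 fold change was −3.30 (SE 0.59; edgeR adjusted p = 0.00358), and −4.18 without female 8-week library 1. Its call ended without both male 4-week libraries (−2.05; edgeR adjusted p = 0.120) and without male 8-week libraries 2 and 3 (−2.76; 0.0505).

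Cfd encodes adipsin, the complement protease factor D, which fat cells secrete. It lay at 0.733, 2.45 and 1.14 CPM in 8-week males, against 36.6 and 136 CPM in 4-week males. In females it lay at 18.5, 5.15 and 3.55 CPM at 8 weeks and at 79.4 and 7.99 CPM at 4 weeks. Male 4-week library 2 and female 4-week library 1 were the high ones, and female 8-week library 1 again lay above female 4-week library 2. Cfd averaged 5.24 ± 6.67 CPM at 8 weeks (SD, n = 6) and 65.0 ± 55.8 CPM at 4 weeks (SD, n = 4). The log2 fold change was −3.70 (SE 0.73; edgeR adjusted p = 0.00670). It was −2.96 when male 4-week library 2 was left out, −4.40 for female 4-week library 2 and −4.64 for female 8-week library 1. The call was lost when both male 4-week libraries were left out (−2.26; edgeR adjusted p = 0.141) or male 8-week libraries 2 and 3 were (−3.08; 0.0879), and with limma-voom (0.0883).

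Fabp4 is the fatty acid carrier of fat cells and is also made by capillary endothelium. It lay at 1.15, 4.34 and 1.33 CPM in 8-week males, against 79.7 and 92.5 CPM in 4-week males. In females it lay at 16.5, 8.75 and 6.26 CPM at 8 weeks and at 121 and 16.0 CPM at 4 weeks. Only the 2 female ages overlapped, by 1 library at each age. Fabp4 averaged 6.39 ± 5.74 CPM at 8 weeks (SD, n = 6) and 77.4 ± 44.5 CPM at 4 weeks (SD, n = 4). Its log2 fold change was −3.72 (SE 0.54; edgeR adjusted p = 0.000803), −4.34 without female 4-week library 2 and −2.70 without both male 4-week libraries. It was −3.32 without male 8-week libraries 2 and 3. It was the only one of the 6 genes whose call held under all 19 alternatives, with adjusted p values up to 0.0374.

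The 11 genes of the capillary list summed to between 103 and 175 CPM at 8 weeks and between 117 and 180 CPM at 4 weeks. Slco1a4, a transporter of brain capillaries and the most abundant of the list, lay between 26.7 and 44.1 CPM at 8 weeks and between 26.7 and 46.3 CPM at 4 weeks. None of the 11 was at 0 in every library of an age, and of the 10 tested Meox2, an endothelial transcription factor, was called lower (−1.20, SE 0.29; edgeR adjusted p = 0.0216), against 5.01% called lower over all genes. A sum led by a gene of brain capillaries cannot follow the capillaries of attached fat or muscle separately. The part of capillary cells in the change of Fabp4 was not tested.

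Plin1, the perilipin that guards the fat cell droplet from lipases, had the fewest counts of the 7 genes. There were 3, 0 and 1 counts in the 8-week males, against 16 and 57 in the 4-week males, and 8, 2 and 3 counts in the 8-week females, against 45 and 5 in the 4-week females. In CPM, female 8-week library 1 (0.825) exceeded female 4-week library 2 (0.493), and no other 8-week library did. The log2 fold change was −3.40 (SE 0.67; edgeR adjusted p = 0.00630). It was −2.81 when female 4-week library 1 was left out and −4.02 for female 8-week library 1. The call was lost when male 8-week libraries 2 and 3 were left out (−2.84; edgeR adjusted p = 0.0623) and with limma-voom (0.0707), and Plin1 did not pass the filter when both male 4-week libraries were left out.

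Plin4 is a perilipin of fat cells and of skeletal muscle. It lay at 5.13, 4.12 and 3.69 CPM in 8-week males, against 4.45 and 8.80 CPM in 4-week males, and at 6.19, 4.53 and 4.70 CPM in 8-week females, against 6.51 and 3.85 CPM in 4-week females. The ages overlapped in both sexes, and the highest library was the one with the most Adipoq. The log2 fold change was −0.35 (SE 0.23; edgeR adjusted p = 0.420). It was −0.54 without female 4-week library 2, −0.02 without male 4-week library 2, −0.0095 without both male 4-week libraries and −0.16 without male 8-week libraries 2 and 3. Plin4 counts per Adipoq count lay between 1.33 and 24.5 at 8 weeks and between 0.385 and 1.26 at 4 weeks.

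Complete separation of the ages was seen for 1 of the 7 genes, Ucp1, and 4.49% of all genes tested had every 8-week library below every 4-week library. For 5 others this held for 5 of the 6 libraries at 8 weeks. The library that broke the separation was female 8-week library 1 for Fabp4, Adipoq, Cfd and Plin1, and female 8-week library 2 for Cidea.

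**Figure D2:**
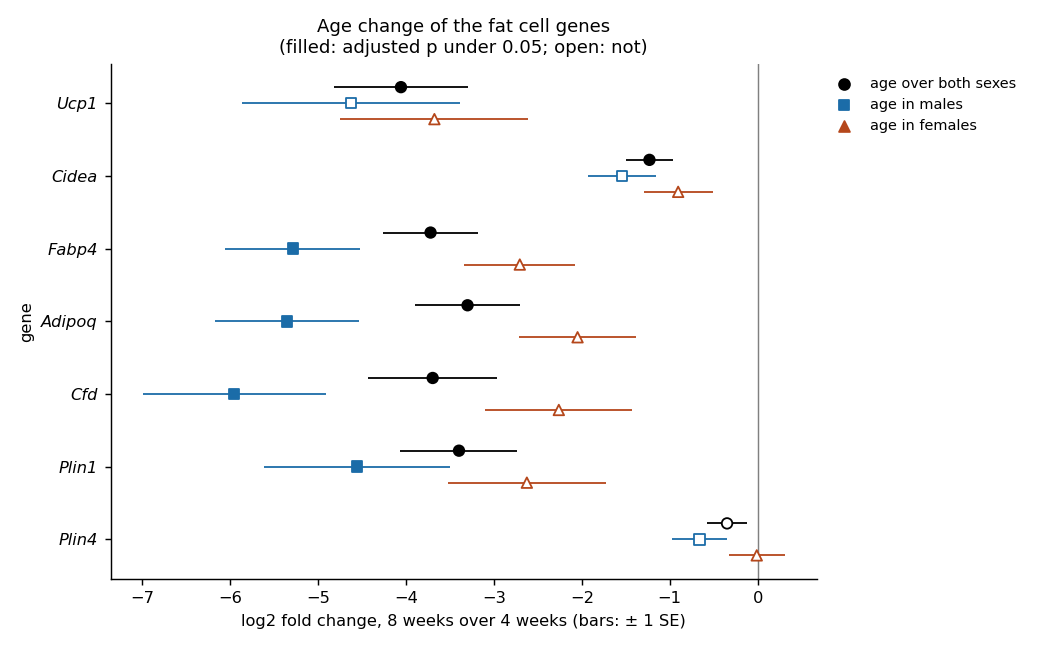
Log2 fold change of each gene at 8 weeks over 4 weeks (horizontal axis; bars, 1 SE) over both sexes, in males and in females; filled symbols have an adjusted p under 0.05. Adipoq stood at −5.36 in males and −2.05 in females, and Plin4 has an open symbol in all 3 comparisons.

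Within males 4 of the 7 genes were called lower at 8 weeks (Fabp4, Adipoq, Cfd and Plin1), against 2.39% of all genes. Ucp1 and Cidea stood at log2 fold changes of −4.63 (SE 1.24; edgeR adjusted p = 0.0716) and −1.54 (SE 0.38; 0.0512), and neither passed. Adipoq fell by 5.36 log2 units (SE 0.82; edgeR adjusted p = 0.00498) and Cfd by 5.95 log2 units (SE 1.04; 0.00958). Cfd missed the threshold once male 8-week library 1 was left out (edgeR adjusted p = 0.0537). Fabp4 fell by 5.29 log2 units (SE 0.77; edgeR adjusted p = 0.00365) and Plin1 by 4.56 log2 units (SE 1.05; 0.0365). Plin1 lost its call when male 4-week library 2 or any one 8-week library was left out, with edgeR adjusted p from 0.0566 up to 0.131. Leaving out male 4-week library 1 took Ucp1 to −2.22 and Cidea to −0.74. Without male 8-week libraries 2 and 3, 0 of the 7 were called in males, where the 1 library left is assumed to vary as the other groups do and 15 genes were called in all. With the replicate number as a block, Ucp1 (edgeR adjusted p = 0.0220) and Cidea (0.0492) passed and Plin1 (0.0624) did not.

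Within females 0 of the 7 genes were called by edgeR, against 1.22% of all genes called lower, while 6 had an unadjusted p under 0.05. DESeq2 and limma-voom also called 0. The log2 fold changes were −3.68 (SE 1.07) for Ucp1, −2.71 (SE 0.63; edgeR adjusted p = 0.0641) for Fabp4, −2.05 (SE 0.66) for Adipoq and −2.26 (SE 0.84) for Cfd. Leaving out female 4-week library 1 took Ucp1 to −1.31, Fabp4 to −0.61, Adipoq to −0.37, Plin1 to −0.14, Cidea to −0.34 and Cfd to 0.17. That leaves 1 library of 4-week females, which is assumed to vary as the other groups do.

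The difference between the sexes in the age change did not pass the test for any of the 7 genes. It was −3.31 (SE 1.19) for Adipoq, male change minus female change, with an unadjusted edgeR p of 0.0165 and an adjusted p of 0.970. In all, 0 of the 7 were called by edgeR, DESeq2 or limma-voom, 3 had an unadjusted edgeR p under 0.05 (Fabp4, Adipoq and Cfd), and 0.0129% of all genes were called for this difference. Over both ages, 0 of the 7 differed between males and females by edgeR, DESeq2 or limma-voom, 0 had an unadjusted p under 0.05, and 0.0901% of all genes were called. The log2 fold changes, male over female, lay between −0.54 (Fabp4, SE 0.56) and 0.11 (Cidea, SE 0.27).

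The proportion of Ucp1 to Adipoq counts was not the same in all libraries. At 4 weeks Ucp1 made up 59.3% of the Ucp1 and Adipoq counts in male library 1 (exact 95% binomial interval 52.8% to 65.6%) and 6.76% in male library 2 (4.12% to 10.4%). It made up 52.6% in female library 1 (46.8% to 58.4%) and 39.2% in female library 2 (25.8% to 53.9%). Beside Adipoq, the interval of male 4-week library 2 did not overlap any of the other 3, which overlapped one another. As a ratio to Adipoq, Cidea gave another order, with the most counts per Adipoq count in female 4-week library 2 (2.13), against 1.70 in male 4-week library 1. Female 4-week library 2 had only 31 Adipoq counts, and its Cidea level (6.51 CPM) lay within the 8-week range (3.79 to 6.69 CPM). By level in CPM, Cidea was highest in library 1 of each sex, as Ucp1 was. At 8 weeks the Ucp1 share lay between 0% and 61.5%, on between 4 and 56 counts per library, and the intervals overlap widely. Intervals cover counting error only.

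Retn, the gene of resistin, a hormone of white fat in mice, was unevenly spread in another way. At 4 weeks it made up 3.92% of the Retn and Adipoq counts in male library 1 (interval 1.08% to 9.74%) and 24.1% in male library 2 (19.6% to 28.9%). The share was 25.9% in female library 1 (19.9% to 32.7%) and 8.82% in female library 2 (1.86% to 23.7%). Lep, the gene of leptin, had 1 and 15 counts in the 4-week males, 5 and 1 in the 4-week females, 6 in female 8-week library 1 and 0 in the other 5 of the 8-week libraries.

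Read together by library, male 4-week library 1 was high in Ucp1 and low in Retn, male 4-week library 2 was low in Ucp1 and high in Retn, and female 4-week library 1 was high in both. Female 4-week library 2 held little fat RNA of either kind, with 20 counts of Ucp1 and 3 of Retn. Female 8-week library 1 had the most Adipoq of the 8-week libraries, with 11 counts of Ucp1 and 8 of Retn. This reading rests on Ucp1 and Retn, and other fat genes were mixed. In the 4-week males Lep went the way of Retn, and Cox8b, of brown fat and muscle, that of Ucp1. Hp, of liver and fat and listed as white, was higher in male 4-week library 1 (23.7 CPM) than in library 2 (8.54 CPM). Elovl3, of brown fat, had 0 counts in both.

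Cidec, a droplet fusion protein of all fat cells, made up 42.4% and 39.6% of the Cidec and Adipoq counts in male 4-week libraries 1 and 2, and 47.0% and 38.0% in female 4-week libraries 1 and 2, with intervals that all overlapped. Across the 4-week libraries the ratio to Adipoq varied 1.45-fold for Cidec, 1.75-fold for Fabp4, 1.95-fold for Plin1 and 2.31-fold for Cfd. It varied 3.27-fold for Plin4, 6.41-fold for Cidea, 8.57-fold for Retn and 20.1-fold for Ucp1. The Plin4 ratio was 0.388 and 0.389 in male 4-week libraries 1 and 2 and 0.385 in female 4-week library 1. It was 1.26 in female 4-week library 2, which had only 31 Adipoq counts. Cidea and Plin4 kept a level at 8 weeks in libraries with almost no Adipoq, so their ratios are not a measure of fat make-up. At 8 weeks, on far fewer counts, the Cidec ratio lay between 0.143 and 1.00, against between 0.613 and 0.888 at 4 weeks. For Cfd the share beside Adipoq was 76.1% (71.7% to 80.1%) in male 4-week library 1 and 85.8% (84.1% to 87.3%) in male 4-week library 2.

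**Figure D3:**
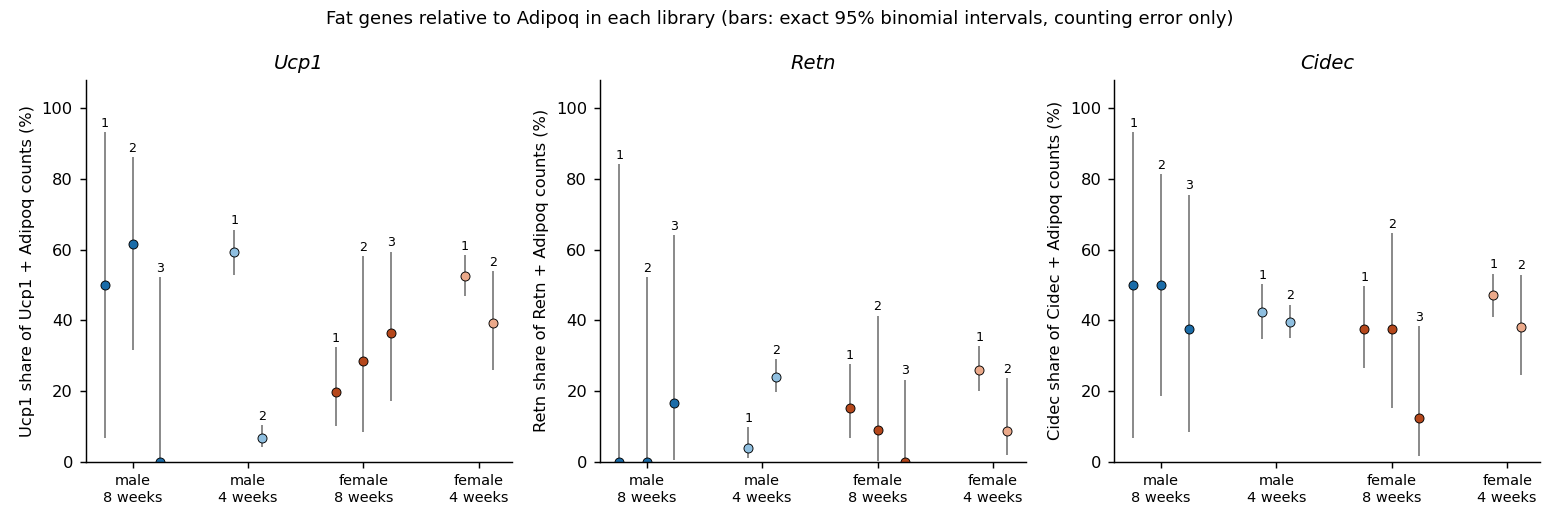
Share of Ucp1, Retn or Cidec counts among the sum of that gene and Adipoq in each library (vertical axis, percent; bars, exact 95% binomial intervals), with replicate numbers. At 4 weeks Ucp1 ranges from 6.76% to 59.3% and Retn from 3.92% to 25.9%, while Cidec lies between 38.0% and 47.0%; the bars of most 8-week libraries are wide.

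Wider lists of fat genes were counted beside the 7. Of 37 genes of either kind of fat cell, 34 were tested, 16 were lower at 8 weeks, 0 were higher and 18 did not pass. The median log2 fold change was −0.44 (all genes 0.01), and 5.01% of all genes were called lower. Cidec fell by 3.69 log2 units (SE 0.62; edgeR adjusted p = 0.00222), and Pck1, a glyceroneogenic enzyme of fat, fell by 2.95 (SE 0.52). Adig, a small adipocyte protein, fell by 3.19 (SE 0.69), and Car3, a carbonic anhydrase abundant in fat and slow muscle, fell by 2.55 (SE 0.31). Lpl, the lipase that frees fatty acids from lipoproteins, fell by 1.87 (SE 0.25), and Pparg, the master regulator of fat cell formation, by 1.03 (SE 0.28; edgeR adjusted p = 0.0406). Without both male 4-week libraries 6 of the list were lower, and without male 8-week libraries 2 and 3 the number was 11.

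The most abundant members of that list are also made by cells of the cord and changed less. Gpd1, which makes glycerol phosphate and is also an oligodendrocyte gene, fell by 0.36 log2 units (SE 0.07). Mgll, a monoglyceride lipase also of neurons and glia, fell by 0.65 log2 units (SE 0.04). Adipor2, an adiponectin receptor, stood at −0.13 (edgeR adjusted p = 0.444), and Lpin1, a phosphatidate phosphatase, at 0.21 (0.118).

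Of 20 brown fat genes 16 were tested, and 1 was lower, 0 were higher and 15 did not pass, with a median of 0.03, against 5.01% called lower over all genes. The count was 3 without male 4-week library 2, 2 with DESeq2 or with no filter, and 1 without both male 4-week libraries or male 8-week libraries 2 and 3. The gene called was Cox8b, a respiratory chain subunit of brown fat and striated muscle, which fell by 2.59 log2 units (SE 0.36; edgeR adjusted p = 0.000524). It lay at 3.14, 3.79 and 2.18 CPM in 8-week males, against 27.8 and 6.12 CPM in 4-week males, and at 1.34, 2.27 and 1.25 CPM in 8-week females, against 13.5 and 8.68 CPM in 4-week females. Its highest library was male 4-week library 1, which also had the most muscle RNA. The most abundant brown fat genes, Esrrg, Sirt3, Ppargc1a and Letmd1, lay at 37.8 CPM or more in every library and none of the 4 was called. Male 8-week library 3, with 0 counts of Ucp1, held them at 79.4, 54.2, 62.1 and 37.8 CPM. Their level in these libraries is thus not a measure of brown fat. Elovl3, a fatty acid elongase that brown fat makes in the cold, had 6 counts in female 4-week library 1, 0 in male 4-week library 1 and at most 1 in any other library.

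Of 15 matched white fat genes 13 were tested, and 3 were lower, 0 were higher and 10 did not pass. The median was 0.08, and 5.01% of all genes were called lower. Retn fell by 4.27 log2 units (SE 0.98; edgeR adjusted p = 0.0176). Hp, the haemoglobin binder haptoglobin, made by liver and fat, had a log2 fold change of −1.25 (SE 0.33; edgeR adjusted p = 0.0379), and Mmrn1, a protein of platelets and vessels, one of −1.75 (SE 0.38; 0.0130). The highest library for Hp was male 4-week library 1 (23.7 CPM), which also had the most neutrophil and marrow RNA and little Retn. Agt, Nnat, Slc7a10 and Sncg, the most abundant, are also cord genes of astrocytes or neurons, and none of the 4 was called. The count of 3 was 0 when both male 4-week libraries were left out, and 1 for male 4-week library 1, for either 4-week female library, for male 8-week libraries 2 and 3 together, or with the replicate block.

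The libraries rich in fat RNA were compared with markers of other tissues. Summed over the 7 genes, fat RNA lay between 11.3 and 52.4 CPM at 8 weeks and at 170, 274, 261 and 39.9 CPM in male 4-week libraries 1 and 2 and female 4-week libraries 1 and 2. The 12 skeletal muscle genes summed to between 219 and 344 CPM at 8 weeks, and in the 4-week libraries, in that order, to 1987, 614, 816 and 799 CPM. Myh1, a fast fibre myosin, lay at 2.45 CPM or less at 8 weeks, and at 41.8, 9.66, 18.0 and 20.9 CPM in the 4-week libraries. The library with the least fat RNA at 4 weeks, female 4-week library 2, thus held about as much muscle RNA as female 4-week library 1. Of the 12 muscle genes 11 were lower at 8 weeks, against 5.01% called lower over all genes.

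Transcripts of other tissues, and some of the cord itself, moved with age too. The 12 spinal cord genes summed to between 44348 and 50767 CPM at 8 weeks and between 61726 and 66798 CPM at 4 weeks. Of these 12 genes 4 were called lower and 1 higher, against 5.01% and 1.61% over all genes. Mbp alone made up much of the sum, at 21739 to 24466 CPM at 8 weeks and 30710 to 34186 CPM at 4 weeks. The median log2 fold change of the 12 was 0.06, and 5 of them had a negative one, so the sums do not show a fall of the whole list. The 10 neutrophil and marrow genes summed to between 132 and 225 CPM at 8 weeks and between 226 and 640 CPM at 4 weeks, and the 11 cartilage and bone genes to between 43.7 and 64.1 CPM at 8 weeks and between 61.4 and 115 CPM at 4 weeks. Of the marrow genes 10 of 10 tested were lower at 8 weeks, and of the cartilage and bone genes 6 of 10, against 5.01% over all genes. S100a9, a neutrophil protein, was the most abundant of its list, at 40.5 to 73.3 CPM at 8 weeks and 69.2 to 205 CPM at 4 weeks. Acan, a cartilage proteoglycan that cord cells also make, led its list at 21.0 to 29.0 CPM at 8 weeks and 16.9 to 20.5 CPM at 4 weeks. The 11 fat precursor and fibroblast genes summed to between 406 and 567 CPM at 8 weeks and between 624 and 974 CPM at 4 weeks. The most abundant was Col1a1, a collagen chain, at 56.8 to 93.0 CPM at 8 weeks and 209 to 558 CPM at 4 weeks. It was the only 1 of the 11 called lower, against 5.01% over all genes, so these sums do not show a fall of the whole list.

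The 7 adrenal cortex genes summed to between 26.6 and 30.0 CPM at 8 weeks, to 149 and 111 CPM in the 4-week males and to 32.8 and 30.7 CPM in the 4-week females. Scarb1, a lipoprotein receptor that other cells also make, led that list at 16.1 to 19.3 CPM at 8 weeks and 19.9 to 24.0 CPM at 4 weeks. Both 4-week males thus held adrenal RNA, with opposite make-up of Ucp1 and Retn, and female 4-week library 1, with 1 count of Hsd3b1, held an amount of fat RNA between theirs. The 7 lung genes summed to 817 and 94.9 CPM in male 8-week libraries 2 and 3 and to at most 9.84 CPM elsewhere. The 7 fat cell genes summed to 16.1 and 11.3 CPM there, against 13.1 CPM in male 8-week library 1. Cidea and Plin4, which did not follow Adipoq, made up most of the sum in library 1 (5.34 and 5.13 CPM). Fabp4 lay at 4.34 and 1.33 CPM in libraries 2 and 3, against 1.15 CPM in library 1. Cfd lay at 2.45 and 1.14 CPM, against 0.733 CPM. None of the markers on these lists was at 0 in every library of an age. The part of attached muscle, marrow, bone, adrenal or lung in the age change of the fat genes was not tested.

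**Figure D4:**
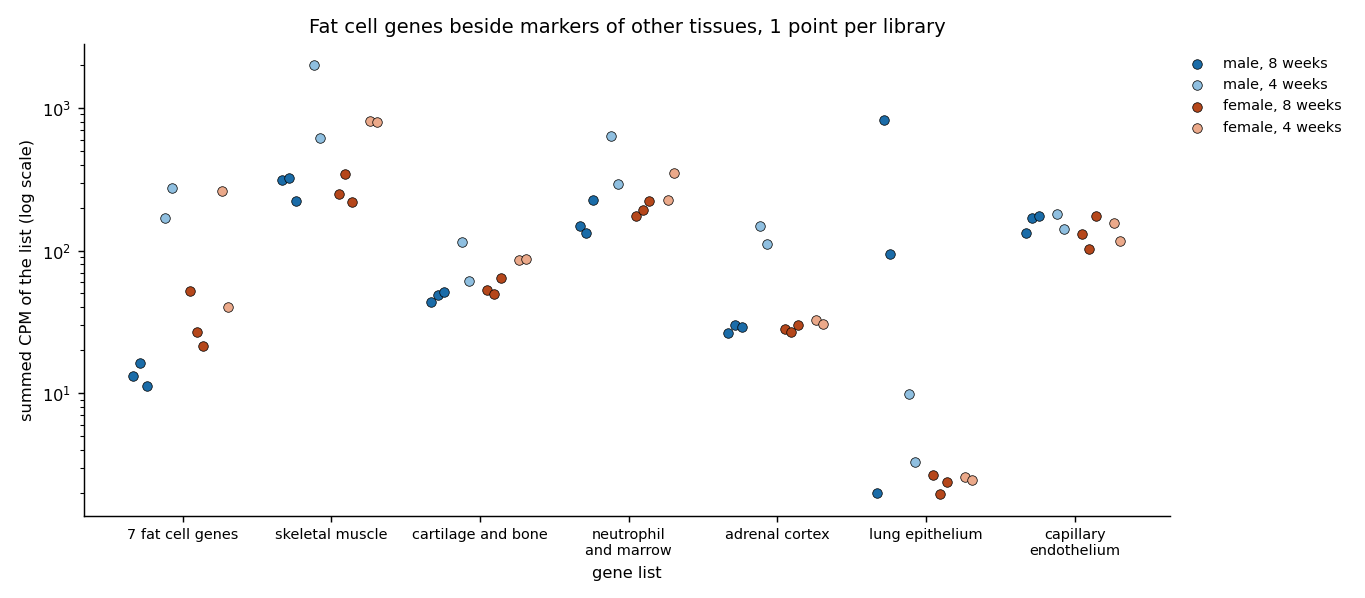
Summed CPM of the 7 fat cell genes and of marker lists of other tissues (horizontal axis) in each of the 10 libraries (vertical axis, log scale), by sex and age. Fat RNA reaches 274 CPM in a 4-week male, muscle RNA reaches 1987 CPM in the other, and the capillary list stays between 103 and 180 CPM.

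The genes whose profile lay nearest to Adipoq were other fat genes. Likeness was measured as the root mean square difference of centred log2(CPM + 0.5) over the 10 libraries, among 15023 genes with a mean of at least 1 CPM. The nearest were Cidec at 0.40, Pck1 at 0.50, Car3 at 0.50, Cfd at 0.57 and Cyp2e1, a cytochrome P450 of liver and fat, at 0.59. Fabp4 and Plin1 came next at 0.60 and 0.72, and Ucp1 ranked 19th at 1.11. Cyp2e1 had 34 and 238 counts in the 4-week males and 123 and 10 in the 4-week females, the order that Cfd had.

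No gene lay as near to Ucp1. The nearest 5 were Bglap2 at 0.77, Postn at 0.79, Pck1 at 0.80, Bglap at 0.81 and Ckmt2 at 0.87, which are osteocalcin genes, a matrix protein of bone membrane, a fat enzyme and a creatine kinase of muscle mitochondria. Bglap2 and Bglap are near-identical copies, so their counts are uncertain. Adipoq ranked 51st from Ucp1 and Cidea 68th, at 1.15. All points of this measure share the same 10 libraries and the split by age, and it has no test.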

How the data were processed

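The 7 genes, the marker lists and the tests were chosen with earlier results of these data known. Per the submitters' processing notes, reads were aligned with TopHat2 2.1.0 to build mm9 and counted with featureCounts; the sources used here do not give the options, strand setting or annotation, and reads of overlapping or antisense genes may be shared. Per the labels' protocols, RNA was extracted with Trizol. The deposited values are raw read counts per Entrez Gene identifier, with no normalization. Symbols came from a RefSeq table of GRCm38.p6 (24191 of 26301 identifiers), used for names only, and 1 of 154 list entries had no match.

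The main test was that of edgeR 4.0.16 (R 4.3.3), with TMM scaling, filterByExpr (minimum count 10, minimum total 15), a two-sided quasi-likelihood F test and Benjamini-Hochberg adjustment over 15540 genes at 0.05. Age and sex were 2 additive terms of 1 model (7 residual degrees of freedom), and a second model, fitting a mean per group (6), gave age in each sex and the interaction. SE is the absolute log2 fold change over the square root of F. The test was checked on simulated data. Alternatives were other scaling and filters, DESeq2 1.42.0, limma-voom (limma 3.58.1), a replicate block and leaving out libraries. By rule, genes of the fat lists that passed the filter could be named, with the 4 most abundant always named; for other lists the most abundant was named, although Pygm, which the cord also makes, leads the muscle list at 165 to 212 CPM at 8 weeks and 181 to 225 CPM at 4 weeks. Hsd3b1, Sftpc, Myh1, Col1a1, Meox2, Lep and Elovl3 were named after their values were seen. Chi-square over degrees of freedom was at least 1.92 for every replicate pair, so no pair agreed within sampling noise.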

Additional observations from a re-analysis of the deposited data

Results flagged for a closer look

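Female 8-week library 1 stood apart from the other 5 of the 8-week libraries for 2 of the 7 genes, with 4.64 CPM of Adipoq and 18.5 CPM of Cfd. Its gap to the next library was 0.717 of the whole range for Adipoq and 0.751 for Cfd. Of 14 such groups looked at (7 genes at 2 ages), 2 were picked out, both in the same library. Chance picks out about 1 in 20 independent groups if values are normally distributed, which was not tested for these CPM values. The 14 groups share libraries and are not independent.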

How the results depend on the processing

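The count of 6 genes lower at 8 weeks over both sexes was 3 with limma-voom, 2 without both male 4-week libraries and 2 without male 8-week libraries 2 and 3, and lay between 5 and 6 when a single library was left out. DESeq2 gave Cfd no adjusted p. In males the count of 4 was 2 with limma-voom and 0 without male 8-week libraries 2 and 3, and lay between 2 and 6 with a single library left out; it was 2 without male 8-week library 1. In females the count of 0 was 3 with no filter and 2 without both male 4-week libraries, and lay between 0 and 2 with a single library left out. For the interaction and for sex it was 0 under every alternative. Over all genes, 1028 were called for age over both sexes, against 393 without both male 4-week libraries and 474 without male 8-week libraries 2 and 3. In males 501 were called, against 239 without male 8-week library 1 and 15 without libraries 2 and 3. In females 226 were called, against 340 with no filter, 393 without both male 4-week libraries, 118 without male 8-week libraries 2 and 3 and 68 without female 4-week library 2. For sex 14 were called, against 60 with no filter, 35 with DESeq2 and 38 with the block. The direction turned for Cfd in females without female 4-week library 1 (0.17; lowest with a single library left out −3.32), and for Plin4 in females, main −0.01, with total counts (0.0048), limma-voom (0.0402), the replicate block (0.0773) and a single library left out (−0.35 to 0.41). With the replicate block the counts were 6, 5, 0, 0 and 0 for age over both sexes, in males, in females, the interaction and sex. The labels give no pairing. Same-numbered libraries of the 2 sexes deviated with correlations of −0.0565, 0.0379 and 0.236 at 8 weeks and 0.211 at 4 weeks, and over all same-numbered pairs these ranged from −0.213 to 0.236, so the numbers were not taken as pairs. Beside Plin1 or Cfd in place of Adipoq, the Ucp1 share at 4 weeks was again highest in male library 1 (89.9% and 31.4%) and lowest in male library 2 (25.0% and 1.19%). The intervals of male library 1 and female library 1, which overlapped beside Adipoq, then did not. They were 84.2% to 94.1% and 71.6% to 83.4% beside Plin1, and 27.2% to 35.9% and 16.5% to 22.0% beside Cfd. Near 1 CPM a library holds about 10 counts, which limits Plin1, Retn and the shares at 8 weeks.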
